A study of Mus musculus with 12 samples.

Results

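At 4 days post partum (dpp) the germ cells of the mouse testis have become spermatogonia, and the question here is which mRNAs sat on heavy polysomes at that age and which lay at the top of the gradient. The comparison sets the 3 arrays of the 4 dpp polysome pool against the 3 arrays of the 4 dpp non-translating pool, 6 of the 12 arrays of the study. It runs over 45037 probe sets, which are all those of the array except its 64 controls, and the members were taken by the sample labels alone.

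All animals were CD-1 mice, an outbred stock, aged 1 or 4 dpp, with no gene altered. Whole testes were rinsed in cycloheximide, which holds ribosomes on their mRNA, and the lysate without its nuclei was spun through sucrose and collected in 14 fractions of 750 μl. Fractions 1 to 3 make the non-translating pool and fractions 7 to 13 the heavy polysome pool, while the lighter polysomes between them are in neither. Each pool was hybridised as 3 arrays per age from 5 μg of RNA each, called biological replicates in the labels with no word on which animals they came from, so a p-value here refers to the scatter among these samples only, which may be technical.

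A polysome is an mRNA with several ribosomes on it, and the further an mRNA sinks the more ribosomes it carries, so its place depends both on how often translation starts and on how long the reading frame is. mRNAs that begin with a C followed by pyrimidines (5′ terminal oligopyrimidine or TOP mRNAs, most of them for ribosomal proteins and elongation factors) move off polysomes when the growth regulator mTORC1 is quiet. In the testis, stored mRNAs that are translated later are a well-known feature of germ cells. Whole testis holds Sertoli, Leydig, peritubular, endothelial and blood cells beside the germ cells, and in such a mixture fewer cells of a type and less RNA per cell cannot be told apart.

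The deposited value is a probe set's signal intensity on a linear scale, analysed as log2(value + 1). The number after a gene is the log2 difference, polysome minus non-translating, of its brightest probe set unless another is named. After ± stands its standard error (SE, n = 3 arrays in each pool). limma took it from the spread within the groups of all 12 arrays, not from these 6 alone. A gene is called higher or lower when limma's p-value, adjusted over all probe sets by the Benjamini-Hochberg method, is under 0.05. Every array carried the same nominal amount of RNA, so each difference is relative to the other RNAs and is no share of an mRNA on polysomes.

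The arrays of the polysome pool were not alike. Over 27022 probe sets above the 40th percentile of mean signal, polysome replicates 1 and 3 had r = 0.962 with each other, and replicate 2 had 0.912 and 0.88 with them but 0.951 and 0.952 with replicates 1 and 2 of the 1 dpp polysome pool. In mirror image, replicate 3 of the 1 dpp polysome pool had 0.945 and 0.96 with 4 dpp polysome replicates 1 and 3, and a spike level of 998.3. The labels were used as given, and an exchange of these arrays, which would alter the ratios at both ages, was not tested. Spiked control RNAs averaged 409.5 and 277.7 on polysome replicates 1 and 3, 4809 on replicate 2 and 2175 to 2885 on the non-translating arrays. Non-translating replicate 1 stood apart from the other two in the 3′ over 5′ signal of Actb (log2 6.38, against 2.83 and 2.82). The mean of this measure over Actb and Gapdh also separated the pools. It was 2.27, 1.79 and 1.84 on the polysome and 5.17, 2.42 and 2.38 on the non-translating arrays (exact permutation p = 0.1, two-sided, the smallest possible). The part of this difference in the results was not tested. Germ cell (Ddx4, Dazl) and Sertoli cell (Clu, Sox9) markers were present in both pools, and only 8 of 25 genes of spermatids, cells not yet formed at this age, were above the signal level of 16.4 that marks the 40th percentile.

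In all, 2443 probe sets were called (5.42% of those tested), 1623 higher on polysomes (3.6%) and 820 lower (1.82%), 2049 of them by at least 2-fold. Counted by genes, 1096 of 18193 were called (6.02%), 717 higher (3.94%) and 379 lower (2.08%), and these shares are the background for each list described here. The background of the unadjusted counts is larger. At an unadjusted p under 0.05 (limma), 2200 of the 18193 genes were higher, 1956 lower and 999 changed between ages. The 3 arrays of each pool did not overlap for 12% of genes with the polysome pool higher and for 13.3% with it lower. The balance depended on scaling: 66.4% of called probe sets higher as deposited, 53.6% after quantile normalization and 53.2% after scaling to the trimmed mean. That last scaling moved the median of all probe sets from −0.05 to −0.19. A fit of these 6 arrays alone called 31 higher and 8 lower, against 7576 with an unadjusted p under 0.05. The remaining calls draw on the spread of all 12 arrays. Leaving out non-translating replicates 2 or 3 left 454 and 593 called higher. The genes named in this text have 174 called probe sets, and 0 of them changed sign in any of up to 26 alternatives. Of these, 68 kept their call whichever 1 array was left out and 106 lost it for at least 1 array, 104 of them without non-translating replicate 2. On their brightest probe sets, Aif1 kept its call in 9 alternatives, Boll, Eif2b5, Snhg1 and Smarca5 in 10, Mrps28, Rps4l and Snhg12 in 11, Acvr2a, Txnrd2 and Hars in 12, and Rars, Eef1b2 and Lamc1 in 13, so these calls are the least firm.

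A few genes of the germ line were higher on polysomes. Of 29 meiosis genes 1, Tex11, was called higher (3.45%, against 3.94% of all genes) and 0 lower, and the median was 0.02. Tex11, an X-linked gene needed for meiotic recombination, gave signals of 34.6, 29.7 and 39.45 on the non-translating arrays and 137, 146 and 155.5 on the polysome arrays. The polysome values lay close together and far above the others, a 4.16-fold difference (2.06 ± 0.20, adjusted p = 0.001565). It was called in all 26 alternative analyses, the fit of the 6 arrays alone among them. Rhox13, a homeobox gene of the X-linked reproductive cluster, had 225, 96.4 and 114 in the non-translating pool and 497, 456 and 424.5 on polysomes. No polysome array came near the highest non-translating one, and the difference was 3.37-fold (1.75 ± 0.32, adjusted p = 0.00955). It kept its call in 23 of 26 alternatives and lost it in the fit of 6 arrays, without non-translating replicate 2 and without polysome replicates 1 and 3 (1.37 to 2.15 over all).

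Trim71, a ubiquitin ligase that binds RNA and is known from embryonic stem cells, had 65.9, 60.0 and 56.8 at the top of the gradient and 240, 247 and 335 on polysomes (2.14 ± 0.26, adjusted p = 0.002314), and all polysome arrays were above all others. Its other probe set gave −0.17 and was not called. Of 28 germ granule genes, whose proteins make piRNAs that silence transposons, 3 were higher and 1 lower, with a median of 0.20. Asz1, a mitochondrial anchor of the granule, had 108, 108.5 and 151 against 299, 369.6 and 440.5 (1.58 ± 0.25, adjusted p = 0.005041). Another probe set of Asz1 gave 0.51 and was not called. Stk31, a kinase-like protein with a Tudor domain, had 33.3, 24.9 and 26.4 against 135, 59.4 and 213 (2.06 ± 0.51, adjusted p = 0.03419), so that polysome replicate 2 was the lowest of its group. Its call held in 15 of 26 alternatives and was lost without any 1 of the 4 dpp arrays other than polysome replicate 2. Without non-translating replicate 2, Gas5 and Cyp11a1, described further on, also lost theirs. The arginine methyltransferase Prmt5 was at 1.39. Boll, a relative of Dazl, was lower (−1.29) at signals of 10.1 to 38.2.

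**Figure D1:**
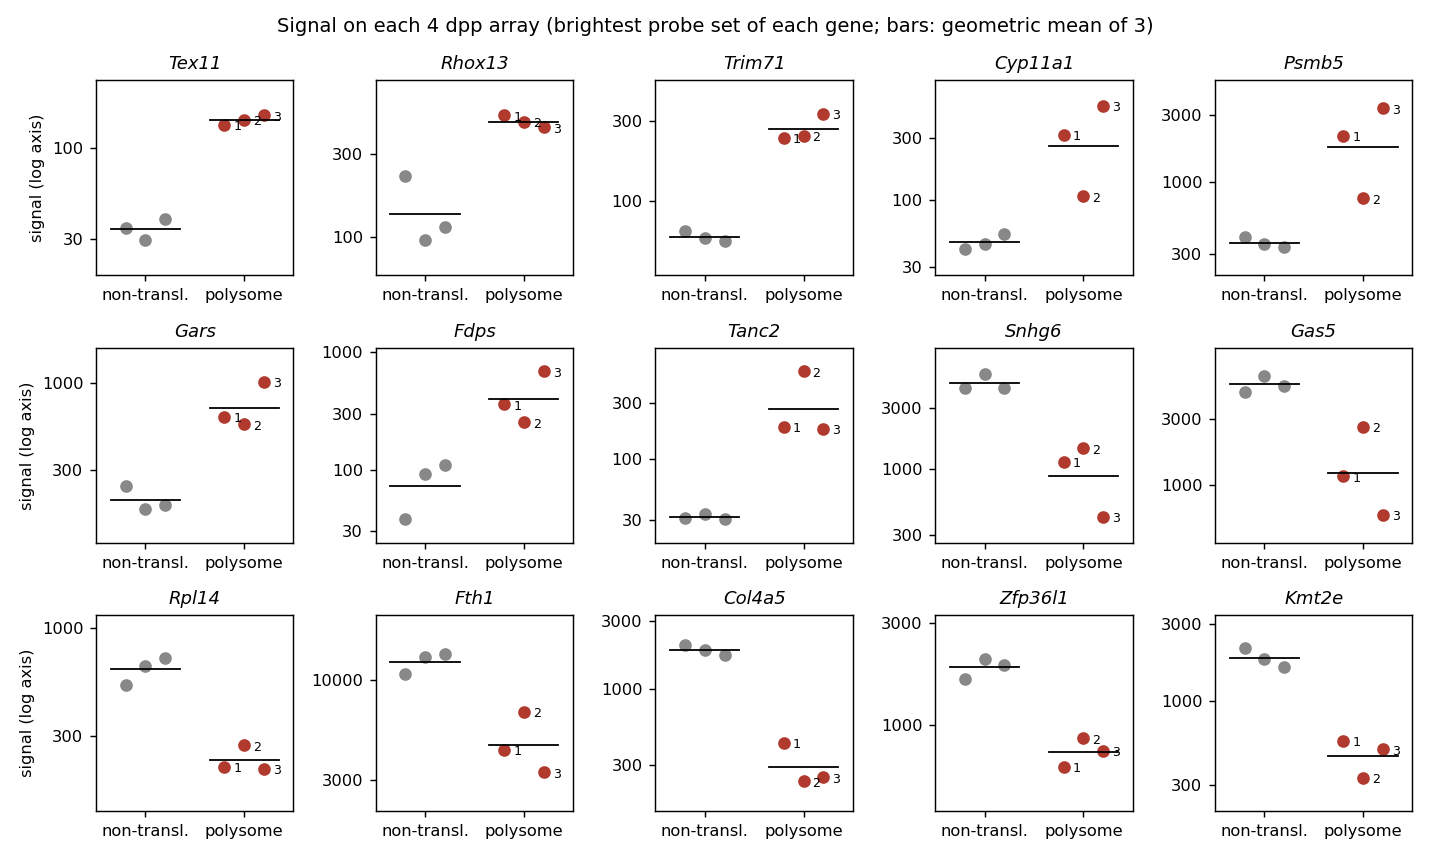
Signal of 15 genes on each of the 6 arrays at 4 dpp, on a log axis, with grey points for the non-translating and red points for the polysome pool, and a bar at the geometric mean of each group of 3. The groups do not overlap in any panel. Replicate 2 is the highest polysome array for Tanc2 and the lowest for Cyp11a1 and Psmb5, while Tex11 has 137, 146 and 155.5.

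On their brightest probe sets, most markers of spermatogonial state were not called. Of 31 genes of undifferentiated spermatogonia limma called 0 (3 higher and 1 lower at an unadjusted p under 0.05), and their median was 0.01. Of 20 genes of differentiation 1 was higher (Rhox13) and 1 lower, with a median of 0.30. The lower one was Lmo1, a LIM-domain transcriptional partner, which fell from 407, 517 and 757 to 227, 137 and 120 (−1.80 ± 0.33, adjusted p = 0.009525). Kit, the receptor that marks differentiating spermatogonia, had 43.5, 77.4 and 73.3 against 143, 22.2 and 226. Its polysome replicate 2 was below every other array and the other 2 polysome arrays were above, which gave 0.52 ± 0.71. The retinoic acid target Stra8 likewise had replicate 2 as the low polysome array, with 127.5, 86.8 and 129 against 338, 126 and 455 (1.25 ± 0.48, adjusted p = 0.1553). Sohlh1 was at 0.88, Sohlh2 at 0.46, Dazl at −0.39, Ddx4 at 0.54, Sall4 at 0.79, Zbtb16 at −0.69, Gfra1 at 1.00 and Id4 at 0.36, with adjusted p from 0.09935 to 0.8339. The DNA methyltransferases Dnmt3a, Dnmt3b and Dnmt3l had 0.15, 0.00 and −0.01. Other probe sets of these genes were called higher: one of Dnmt3a (1.81, with another at 1.65 not called), one of the transcription factor Foxo1 (1.55, its brightest at −0.32), one of the RNA-binding Elavl2 (1.66) and 5 of the cyclin Ccnd2 (1.25 to 2.51, its brightest at 0.81 and not called). One of the Ccnd2 probe sets gave 287, 385 and 300.3 against 1516, 1347 and 3002, with no overlap.

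The highest median of the lists belonged to the proteasome, the barrel-shaped protease that degrades ubiquitin-tagged proteins. Of 39 genes of subunits and assembly measured, limma called 14 higher and 0 lower (29 and 0 at an unadjusted p under 0.05), 38 had a difference above 0, and the arrays of the pools did not overlap for 28. The median was 1.03, against −0.05 over all genes. The caps that recognise and unfold substrates had 8 of 14 non-ATPase subunits higher, with a median of 1.2, and 2 of 6 ATPases, with a median of 1.16. In the core, 2 of 8 alpha subunits (median 0.91) and 2 of 11 beta subunits (median 0.80) were higher.

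Psmb5, the beta subunit with chymotrypsin-like activity and the target of proteasome drugs, gave 399.4, 356 and 340 on the non-translating arrays and 2144, 759 and 3377 on polysomes. All 3 polysome values were above, with replicate 2 far below the other 2, and the difference was 4.83-fold (2.27 ± 0.47, adjusted p = 0.01661). The call was lost without non-translating replicates 2 or 3 or polysome replicates 1 or 3, at differences from 1.06 to 2.88. Psmd9, an assembly chaperone of the cap, had 111, 103 and 98.8 against 388, 249 and 373 (1.66 ± 0.25, adjusted p = 0.004). Psmc4, one of the ATPases, had 1399, 1012 and 855.6 against the close polysome values 2689, 2880 and 3064 (1.43 ± 0.21, adjusted p = 0.004044), and its second probe set gave 1.69. The scaffold subunit Psmd2 was at 1.67, and Psmd7 at 2.26 from a non-translating group spread from 27.2 to 113. Psmd7 and Psmd9 each had another probe set above the signal level at −1.56 and −0.25, neither of them called.

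Subunits that stand in for others in special cells were not called. The immunoproteasome subunits Psmb8, Psmb9 and Psmb10 had 0.56, 0.54 and 0.84, the germ cell subunit Psma8 had 0.76, and the thymic subunit Psmb11, at signals of 8.44 to 10.1, had −0.14. Among the other members the lowest values were those of Psma5 (0.14), Psmc6 (0.21) and Psmb1 (0.26), with overlapping arrays.

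**Figure D2:**
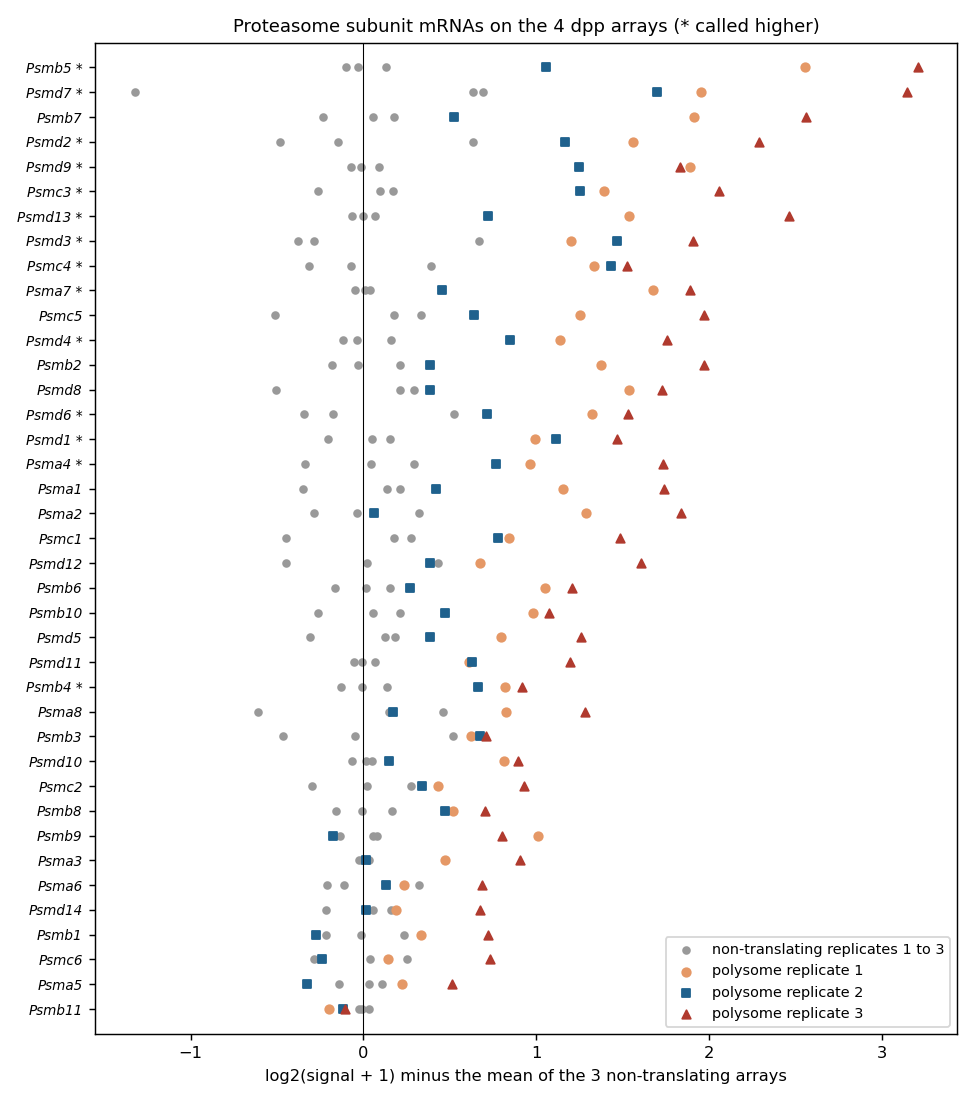
Each of the 39 proteasome genes on the 6 arrays, as log2(signal + 1) minus the mean of its 3 non-translating arrays (grey), with orange circles, blue squares and red triangles for polysome replicates 1, 2 and 3 and an asterisk on the 14 genes called higher. Replicate 3 is the highest polysome array for 37 genes and replicate 2 the lowest for 33.

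The size of this difference followed the array. Polysome replicate 3 was the highest of its group for 37 of the 39 genes and replicate 2 the lowest for 33. The list's median was 1.16 without replicate 2 (27 called higher) and 0.47 when replicate 2 was the only polysome array. It was 0.74 with 4 called without replicate 3, and 0.57 with 7 called when the arrays of low spike level were a block. Without non-translating replicates 2 or 3 the counts were 3 and 4 and the medians 1.02 and 1.10. Over all probe sets the number called higher moved as well. It was 1623 in the main fit, 3447 without polysome replicate 2 and 778 without replicate 3. With the block it was 2556, and without non-translating replicates 2 or 3 it was 454 and 593. The list's median at 1 dpp was 0.23, and limma called the change between ages for 0 of the 39 genes (11 at an unadjusted p under 0.05). The part of the spike level in this was not tested.

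The mitochondrial ribosome and the respiratory chain, whose proteins are made in the cytosol and imported, followed with smaller values. Of 76 mitochondrial ribosomal protein genes, 8 were called higher and 0 lower (33 and 3 at an unadjusted p under 0.05), 58 had a difference above 0, and the median was 0.62, with 0.58 for the large and 0.72 for the small subunit. Mrps34 had 216, 301 and 227 against 799.4, 573 and 608, clear of each other on every array (1.41 ± 0.24, adjusted p = 0.006534). Mrpl28 had 604, 367 and 388 against 1330, 1293 and 957.5 (1.42 ± 0.26, adjusted p = 0.009567). Its other probe sets gave 1.51 (called) and −0.09 (not called). Mrpl37 was at 1.90, Mrps28 at 1.5 and Mrpl3 at 1.44. Without polysome replicate 2 the count was 27 (median 0.84), in a run that called 3447 of all probe sets higher, against 1623 in the main fit. With replicate 2 as the only polysome array the median was 0.15. At 1 dpp the median was −0.19, and 0 changes between ages were called (31 at an unadjusted p under 0.05).

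Of 80 respiratory chain genes, 9 were called higher and 0 lower (17 and 3 unadjusted), with a median of 0.18. By complex, the medians were 0.23 for complex I, 0.21 for complex III and 0.26 for the ATP synthase, and −0.11 for complex IV, of which 0 of 15 members were called. Sdhb, the iron-sulphur subunit of succinate dehydrogenase, had 582, 528 and 485.5 against 1612, 1079 and 2100 (1.54 ± 0.27, adjusted p = 0.008824). Ndufv1, which holds the NADH-binding site of complex I, had 1098, 852.5 and 785 against 1898, 2186 and 2799 (1.33 ± 0.23, adjusted p = 0.006937), here with replicate 2 in the middle of its group. The median of the 80 genes at 1 dpp was −0.6, and 0 changes between ages were called (29 at an unadjusted p under 0.05, limma). At 4 dpp the list's median turned to −0.11 without polysome replicate 1 and to −0.07 with the low spike level as a block. Without that replicate 3 members were called higher and 3 lower, beside 996 and 514 of all probe sets.

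Genes of translation itself split. Of 40 genes of initiation and mTORC1 signalling, 4 were higher and 0 lower (median 0.19), and 3 of the 4 encode subunits of eIF2B, the exchange factor that recharges the initiator-carrying factor eIF2. Eif2b2 had 365, 366 and 398 against 647, 852 and 930 (1.09 ± 0.23, adjusted p = 0.01833), Eif2b4 was at 1.05 and Eif2b5 at 1.31. Eif6, an anti-association factor of the large ribosomal subunit, had 182, 228 and 254 against 974, 550.1 and 1229 (1.98 ± 0.33, adjusted p = 0.006534), and −0.17 on its other probe set. Of 25 genes of the integrated stress response and of regulation by upstream reading frames, 4 were higher and 0 lower (median 0.44). These were the tRNA synthetases Eprs (2.32) and Gars, the asparagine synthetase Asns (1.31) and Phgdh, the first enzyme of serine synthesis (1.28). Gars had 240, 175 and 184 against 623, 562 and 1015 (1.84 ± 0.35, adjusted p = 0.01068).

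TOP mRNAs lay on the other side, with smaller differences. Of 50 ribosomal protein genes 2 were lower (4%, against 2.08% of all genes) and 1 higher (2%, against 3.94%). Their median was −0.26, and 16 had the polysome arrays below and clear of the others. At an unadjusted p under 0.05 (limma) 10 were lower and 1 higher. Of 25 other TOP mRNAs 5 were lower (20%) and 0 higher (8 and 0 unadjusted), with a median of −0.41. At 1 dpp the medians were −0.48 for the ribosomal protein genes and −1.03 for the other TOP mRNAs. Rpl14, of the large subunit, had 529, 655 and 717 against 214, 270 and 209 (−1.45 ± 0.25, adjusted p = 0.007042), and Rpl22l1 was at −1.19. The higher one, Rps4l (1.98), is a close copy of Rps4x, which was at −0.33 and not called, and the signals of such copies are not certain to be separate. Naca and Btf3, which shield new chains at the ribosome, fell by 0.66 and 0.79 on the log2 scale, Eef1b2 by 0.62 and Eif3h by 1.05. Naca had 9949, 10900 and 10190 against 7039, 6065 and 6614, a small difference with no overlap. Eef1a1, also a TOP mRNA, was at 0.08 and Pabpc1 at −0.83, neither called.

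The feature that defines TOP mRNAs can be read at the annotated start site. Each window holds the 15 bases before the annotated start and the first 15 of the transcript, from RefSeq on GRCm38.p6, with the run of pyrimidines that begins with C at the start base in capitals. These genes were picked as examples, so they do not show how common the run is. The first 4 belong to RNAs called lower, of which Rpl14 and Zfp266 code for protein and Snhg8 and Gas5 are hosts of small nucleolar RNAs. The last 3 belong to mRNAs called higher and have no such run at the start base. Psmb5 and Psmd9 do have a C followed by 4 pyrimidines within the 10 bases before the start. Gas5 has a further annotated start without a run at its start base.
Rpl14 (chr9:120571502-120571531, plus strand): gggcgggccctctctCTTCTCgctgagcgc
Snhg8 (chr3:123508322-123508351, minus strand): gcaccgttcagaagtCTCTTTggctgcgat
Gas5, second start (chr1:161035151-161035180, plus strand): agccgccatctcagcCTTTCggagctgtgc
Zfp266 (chr9:20521405-20521434, minus strand): acgtcacggccagccCCCCCTTTTCTCCga
Psmb5 (chr14:54617981-54618010, minus strand): cctgttgcccttgctaaacatggcgctggc
Psmd9 (chr5:123228175-123228204, plus strand): caagctccacccttcatctgtttccgtact
Rhox13 (chrX:38120825-38120854, plus strand): catttctgcacagtctactggtcgtggtaa

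The motif searched was a C at the start base followed by 4 pyrimidines (C or T), on the strand of the gene only. It stood in 2.51% of all 32851 RefSeq promoter windows. Among 14452 measured genes with a window, 424 had it (2.93%). The share was 17 of 292 genes called lower (5.82%) and 15 of 585 called higher (2.56%). Genes with the motif were called lower in 4.01% of cases and the others in 1.96%, while the share called higher was 3.54% and 4.06%. The medians of the difference were close, −0.08 and −0.04. The motif was found for 9 of 44 ribosomal protein genes and 6 of 28 non-coding RNAs with a window, and for 0 of 32 proteasome and 0 of 67 mitochondrial ribosome genes. Within 10 bases on either side of the start it was common everywhere (36.4% of measured genes), so annotated starts a few bases off would be missed.

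Non-coding RNAs had the lowest median of all lists. Of 36 measured, limma called 14 lower and 0 higher (25 and 1 at an unadjusted p under 0.05), the arrays did not overlap for 22, and the median was −1.29. Most of the called ones are hosts of small nucleolar RNAs, which are cut from their introns. Snhg6 had 4296, 5563 and 4295 at the top of the gradient and 1135, 1445 and 417 on polysomes (−2.41 ± 0.39, adjusted p = 0.005341). Snhg8 had 4314, 4918 and 4296 against 1208, 1843 and 426 (−2.19 ± 0.41, adjusted p = 0.01043). Gas5 had 4753, 6232 and 5263 against 1156, 2637 and 604 (−2.13 ± 0.40, adjusted p = 0.01015), and its other probe sets gave −1.97 (called), 0.91 and 1.14 (not called). In all 3, polysome replicate 3 was the lowest array of its group. Snhg4, Snhg12, Snhg5, Snhg10, Zfas1, Snhg1 and Snhg16 lay between −2.17 and −1.55. The others called were Dancr (−2.44), the imprinted antisense RNA Airn (−1.62), the Xist activator Jpx (−1.55) and the paraspeckle RNA Neat1 (−1.44). The list's median was −0.63 with replicate 2 as the only polysome array and −0.81 with the low spike level as a block.

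RefSeq classes 1355 measured genes as long non-coding, the called members of the list among them, of which limma called 59 lower (4.35%) and 0 higher (244 and 10 at an unadjusted p under 0.05). Without the list, 45 of 1320 were lower (3.41%) and 0 higher (220 and 9 unadjusted). Of 16468 protein-coding genes 312 were lower (1.89%) and 714 higher (4.34%). Above the signal level, 49 of 451 long non-coding genes were lower and their median was −0.36 (−0.34 without the list), against 0.03 for 13156 protein-coding genes.

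**Figure D3:**
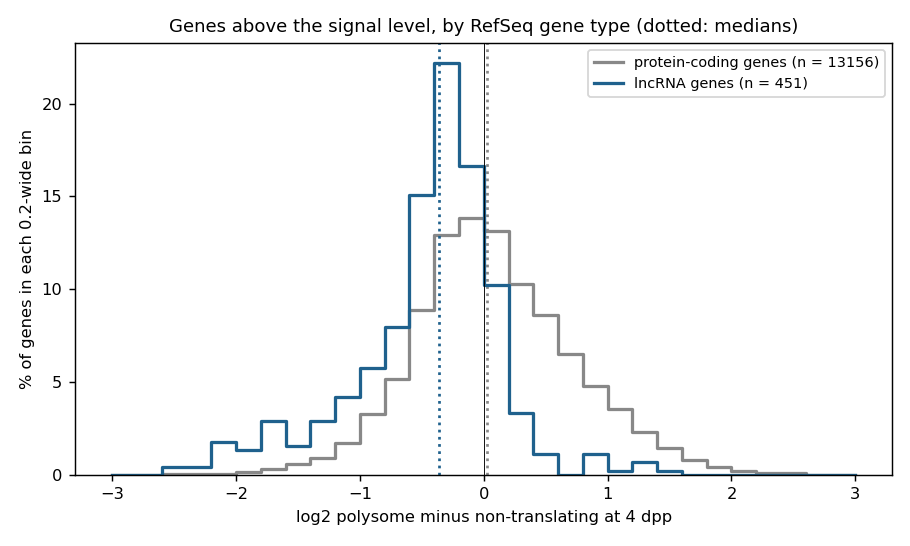
Distribution of the log2 difference at 4 dpp for 13156 protein-coding (grey) and 451 long non-coding genes (blue) above the signal level, as the share of genes in each bin, with dotted lines at the medians of 0.03 and −0.36. The long non-coding genes have a longer tail on the non-translating side.

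Malat1, a nuclear RNA, showed how much a probe set matters. Of its 7 probe sets above the signal level 3 were called lower, among them one with 608, 501 and 436 against 162, 99.6 and 47.9 (−2.46 ± 0.37, adjusted p = 0.003987). Its brightest probe set had 2006, 1924 and 1280 against 2557, 6051 and 254 (−0.11 ± 0.85), with polysome replicate 2 above and replicate 3 below all other arrays.

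Extracellular matrix mRNAs, translated at the endoplasmic reticulum, had 9 of 74 called lower, 0 higher (21 and 6 unadjusted) and a median of −0.26. Col4a5, a chain of basement membrane collagen, had 2040, 1884 and 1727 against 426, 230.0 and 246, with narrow groups far apart (−2.70 ± 0.38, adjusted p = 0.003195). Like Tex11, this probe set was called in every alternative run. Another probe set of Col4a5 above the signal level gave −0.58, with overlapping arrays, and was not called. Col6a1, with 3429, 3675 and 3353 against 1703, 1447 and 1787, also had tight groups (−1.09 ± 0.18, adjusted p = 0.00664). Col1a1 was at −1.90, Vcan at −1.77, Postn at −1.58, Eln at −1.46 and Tnc at −1.21. Other probe sets, not called, gave −0.72 for Col1a1 and 0.18 and −0.59 for Vcan. Col23a1, a transmembrane collagen, had 2 probe sets called higher, at 1.85 and 2.15, while its brightest was at 1.04 and not called.

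Chromatin regulators had 9 of 82 lower and 1 higher (median −0.25). Kmt2e, a trithorax-family protein, had 2111, 1817 and 1617 against 564, 332 and 501 (−2.01 ± 0.31, adjusted p = 0.004292), but 2 other probe sets of it were called higher (2.38 and 1.72). Atrx, a remodeller of heterochromatin, had −1.06 on its brightest probe set and 2.62, 2.75 and 2.03 on 3 others that were called. The helicase Chd1 (−1.77), the acetyltransferase Ep300 (−1.27) and the Y-linked demethylase Kdm5d (−1.43) were lower, and the remodeller Smarca5 (0.98) higher. Other probe sets of Chd1 gave 0.27, −0.14 and −0.62, and none of these was called.

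Among mRNAs whose translation has a known switch, Fth1 was lower. This ferritin heavy chain mRNA, held back by iron regulatory proteins when iron is scarce, had 10870, 13290 and 13770 against 4302, 6840 and 3291 (−1.45 ± 0.23, adjusted p = 0.005407), and a second probe set gave −1.24. In the same list Srm, the spermidine synthase, was at 1.18 and the mitochondrial thioredoxin reductase Txnrd2 at 1.04. Other probe sets of Txnrd2 gave 0.21 and 0.11 and were not called. The deadenylase Cnot7 was lower on 2 probe sets (−1.32 and −1.82) and at −0.13 on another, not called, and Zfp36l1, which brings deadenylation to AU-rich mRNAs, was lower on both of its own (−1.31 and −1.54). On its brightest probe set Zfp36l1 gave 1648, 2030 and 1917 against 639, 871 and 759. The immediate early gene Ier3 was at −1.72, the only one of 30 called. Of 51 paracrine genes 0 were higher and 3 lower, the Notch ligand Jag1 (−1.43), Bmp4 (−1.13) and the activin receptor Acvr2a (−0.93). Other probe sets of Jag1 and Acvr2a gave −0.03 and 0.38 and were not called.

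Genes of somatic cells were called in both directions in the Leydig and Sertoli lists. In the Leydig list, 2 of 15 genes were higher and 1 lower. Cyp11a1, which cleaves the cholesterol side chain, had 41.6, 45.7 and 54.2 against 320, 106 and 532, with replicate 2 lowest but above all non-translating arrays (2.46 ± 0.49, adjusted p = 0.0136). Tspo, a mitochondrial cholesterol-binding protein, was at 1.43 and Thbs2 at −1.81, while Star was at −0.09 and not called. Other probe sets of Thbs2 gave −1.73 (called) and 0.63 (not called). Of 23 cholesterol genes 3 were higher and 0 lower. Fdps, which makes farnesyl diphosphate, had 37.8, 92.6 and 110 against 360.1, 253 and 686 (2.43 ± 0.43, adjusted p = 0.0087), and Scap, the sterol sensor, had 336.5, 299 and 292 against 1061, 782 and 1346 (1.75 ± 0.24, adjusted p = 0.003195). Another probe set of Scap gave 0.07 and was not called.

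Sertoli genes had 2 of 34 higher and 2 lower. The secreted proteins Clu and Ptgds were at 1.40 and 1.46, and the junction protein Tjp1 and Jag1 at −1.83 and −1.43. Clu had 6579, 3832 and 3222 against 10540, 9327 and 15220. Amhr2, the receptor for anti-Müllerian hormone, had 1634, 723 and 761 against 3851, 2562 and 7074 (2.09 ± 0.39, adjusted p = 0.009882), and its ligand Amh was at 0.65 and not called. Of 17 peritubular genes 2 were higher, with the light chain Myl9 at 1.78 (median 0.26), of 15 endothelial genes 1, the claudin Cldn5 at 1.2 (median 0.11), and of 16 macrophage genes 1, Aif1 at 0.89 (median 0.08), with 0 lower in each list (2, 1 and 2 unadjusted, limma). The summed signal of the cell type lists overlapped between the pools except for 12 erythroid genes, at 875 to 1724 in the non-translating and 411 to 709 in the polysome pool (exact permutation p = 0.1, two-sided, the smallest possible), of which limma called 0 (0 higher and 5 lower unadjusted). Of that sum Tfrc alone gave 509.7, 1285 and 1230 in the non-translating and 405.5, 137.5 and 471 in the polysome pool. The median of the erythroid list was −0.28. The part of the erythroid genes in the results was not tested.

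Cell cycle genes had 4 of 54 higher and 1 lower (median 0.45). The replication helicase subunit Mcm6 had 581, 362 and 406 against 1243, 1167 and 1817 (1.65 ± 0.26, adjusted p = 0.004834), and Cdk4, the kinase of the G1 phase, was called on 3 probe sets (1.42, 1.91 and 1.22). The kinesins Kif20a and Kif23 were at 1.51 and 1.06. The inhibitor Cdkn1b went the other way, from 666.5, 868 and 792.5 to 277, 249 and 434 (−1.31 ± 0.26, adjusted p = 0.01444). The median of this list was 0.07 with the low spike level as a block.

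**Figure D4:**
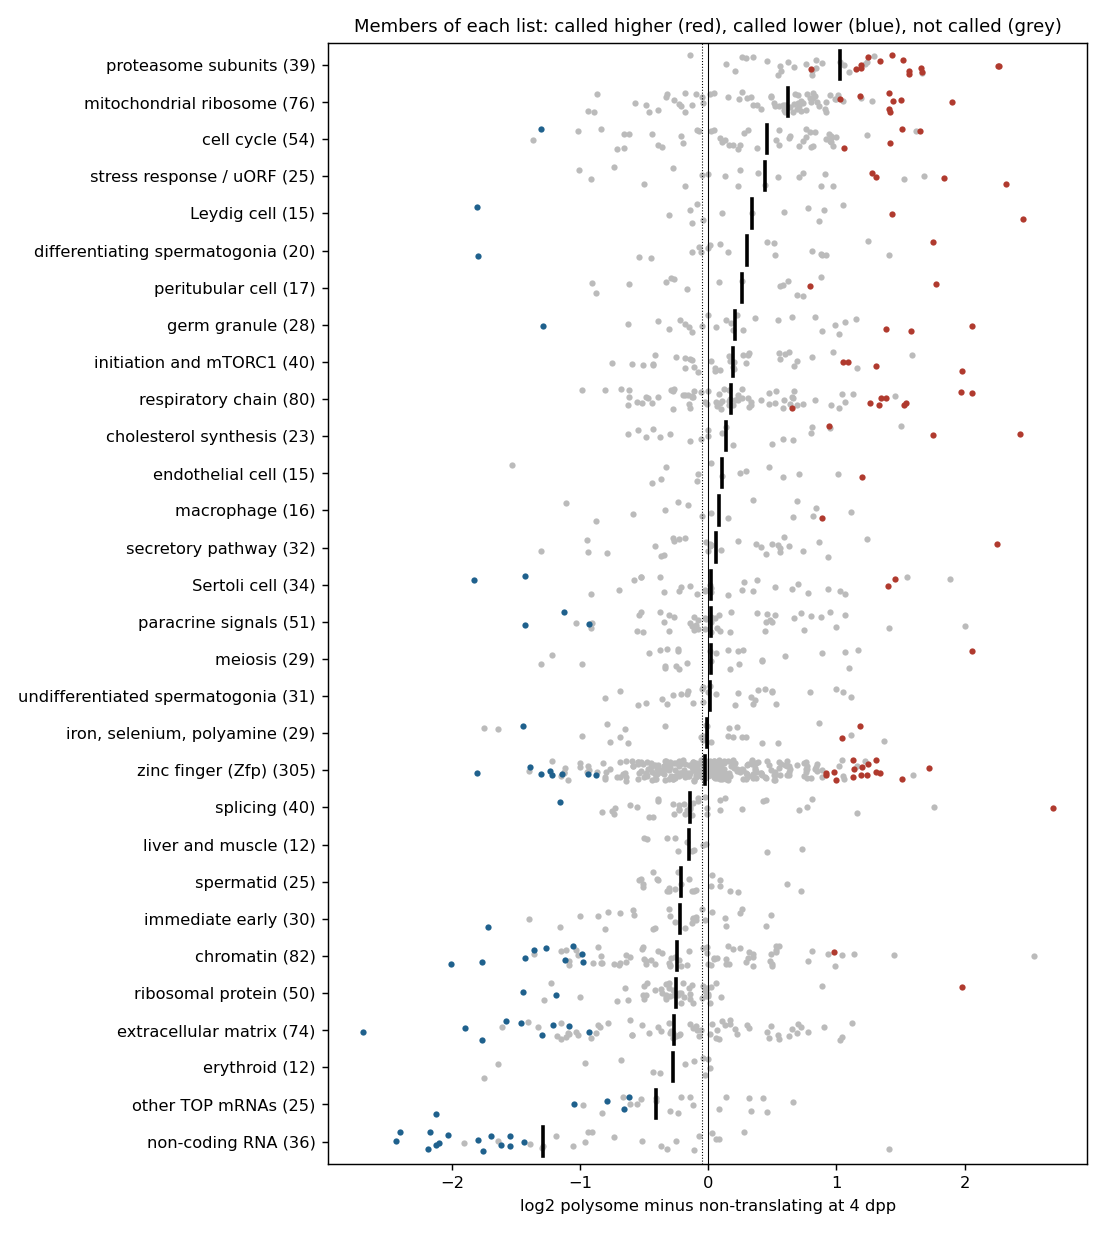
Members of 30 gene lists by log2 difference at 4 dpp, each dot a gene, red where called higher, blue where called lower and grey otherwise, with a bar at the list's median, the number of genes measured in brackets and a dotted line at the median of all genes (−0.05). The proteasome has the highest median (1.03) and non-coding RNAs the lowest (−1.29).

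Some genes were called by more than 1 probe set. Of 5848 genes with several probe sets above the signal level, 48% had the same sign on all, and of 526 such genes whose brightest probe set was called, 60.8% did. There were 98 genes with at least 2 probe sets called higher and none of the opposite sign, and 22 lower. The chaperone Hsp90aa1 had 2 called (2.98 and 2.37), while its brightest one was at 0.35. The small GTPase Rab24 (3.03 and 2.22), the mitochondrial import protein Samm50 (1.86 and 2.07) and the aldehyde reductase Akr7a5 (1.83 and 1.81) were higher on both. Akr7a5 had 707.5, 625 and 644 against 2168, 2353 and 2405 on its brighter probe set. On the other side were Serf1 (−1.80 and −1.77), Mzt1, a partner of gamma-tubulin (−1.97 and −1.75), Tmem134 (−1.66 and −1.99), Lsm12 (−1.61 and −1.71) and the homeobox gene Meis2 (−2.06 and −1.29). Mzt1 gave 1955, 2552 and 2223 against 740, 685 and 359.

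The genes with the largest differences divided by array. Tanc2, a large scaffold protein, had 30.9, 33.8 and 30.3 against 187, 556 and 180, and Srrm2, a splicing cofactor, 828, 366 and 615 against 2622, 7817 and 2438. In both, replicate 2 was far above the other polysome arrays, and the same order held for Zbed6, Ubn1, Prrc2c, Nol8, Rest, Map1b and Garem1. For Psmb5 and Cyp11a1 it was the opposite. Srrm2 gave −0.98 and −1.27, of opposite sign, on its other probe sets above the signal level. Those of Prrc2c gave 2.73 and −0.62, of Nol8 −0.29 and 0.46, of Tanc2 0.87, of Ubn1 0.13 and of Rest 0.11. None of these other probe sets was called. Over the 717 genes called higher, replicate 2 was the highest polysome array for 139 and the lowest for 440, with a median of 1.06 against 1.43 for replicates 1 and 3. Over the 379 called lower it was the highest for 165 and the lowest for 102 (medians −1.15 and −1.23). Replicate 2 was on the same side of the non-translating mean as the other 2 for all 717 and all 379. This was largely fixed by the call, which used replicate 2, as the pools did not overlap for 1093 of the 1096 called genes. Without replicate 2, 3447 probe sets were called higher and 1693 lower.

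**Figure D5:**
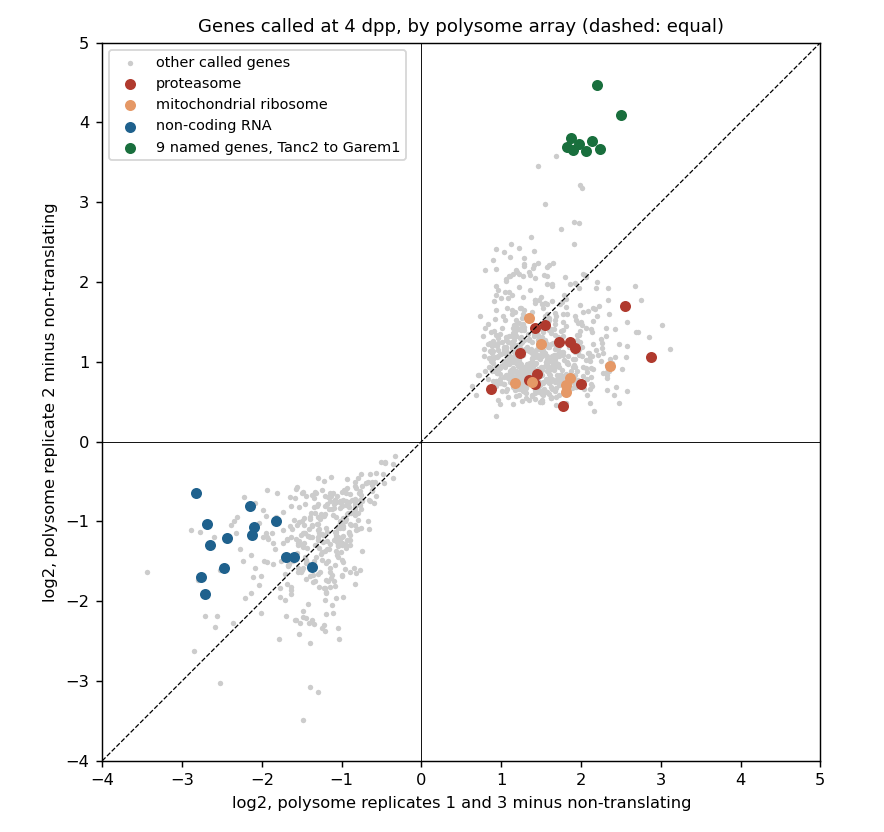
Genes called at 4 dpp, with the log2 difference of polysome replicates 1 and 3 on the horizontal and that of replicate 2 on the vertical axis, both against the 3 non-translating arrays. Called proteasome and mitochondrial ribosome genes (red, orange) lie mostly below the dashed line of equal values, 9 named genes from Tanc2 to Garem1 (green) lie above it, and non-coding RNAs (blue) are nearer 0 on replicate 2.

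At 1 dpp, on other arrays, the ratios were tested in the same fit. Of the genes called higher at 4 dpp, 696 of 717 were above 0 at 1 dpp, and of those called lower 371 of 379 were below 0. Over all genes the median at 1 dpp was −0.02. An exchange of polysome arrays between the ages, which would alter both ratios and these counts, was not tested. The change of the ratio between ages was called for 1 probe set of 45037 (0.00222%), that of Tex11, which was at −0.91 at 1 dpp, a change of 2.97 (adjusted p = 0.003707). With the replicate number as a block this call was lost (adjusted p = 0.2237). The change was 2.16 with values raised to the 40th percentile level, so part of it rests on 1 dpp values below that level. Asz1 was at −1.03 at 1 dpp, Psmb5 at 0.59, Rhox13 at 1.24 and Cyp11a1 at 1.12, and their changes were not called.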

How the data were processed

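RNA from gradient pools of whole CD-1 testes was hybridised to Affymetrix Mouse 430 2.0 arrays, 3 per pool and age. The deposited values are MAS5 signal intensity on a linear scale, per the submitters' processing notes. The version and scaling are not given in the sources used here. Signals ran from 3.713 to 23370 and were used as log2(value + 1) without further scaling or filter. The number of arrays limits the precision.

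A model with 4 groups was fitted over all 12 arrays (8 residual degrees of freedom) in limma 3.58.1 (R 4.3.3), with eBayes and a trend on mean signal. It gave the ratio at 4 dpp, that at 1 dpp and their difference, each adjusted over 45037 probe sets. The code was tested on simulated data.

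Symbols came from the platform annotation: 34945 probe sets had 1 symbol, 932 several and 9160 none, and the Entrez identifiers of 34741 matched RefSeq. Each of 18193 genes was represented by its brightest probe set. Genes were named by 5 rules: the 12 ranked highest in each direction with at least 2 probe sets called and all of the same sign; the 10 largest in each direction; up to 4 called members of each list (the 2 brightest where none was called); a fixed list of 25; and any change between ages that was called. Other list members were named after their values were seen. Members and lists were chosen with earlier results of these data known. Alternatives covered scaling, pseudocount, filter, spread, blocks and left-out arrays.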

Additional observations from a re-analysis of the deposited data

Results flagged for a closer look

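Tex11 differed between the ages by the test of the change itself. Its polysome ratio was −0.91 at 1 dpp and 2.06 at 4 dpp, a change of 2.97 on the log2 scale (limma, adjusted p = 0.003707 over 45037 probe sets), with 3 arrays in each pool and age. With values raised to the 40th percentile level the change was 2.16, so part of it rests on 1 dpp values below that level. The adjusted p was 0.2237 with the replicate number as a block, where the call was lost, and from 4.326e-05 to 0.04155 in the other alternatives. At 4 dpp all 3 polysome arrays were above all 3 non-translating arrays.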

How the results depend on the processing

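Against 1623 probe sets called higher, 820 lower and 1 changed between ages, limma gave 998, 535 and 2 with 1 probe set per gene above the 40th percentile, 5606, 4341 and 5044 with array weights, 31 and 8 in the fit of the 6 arrays, 2556 and 1896 with the low spike level as a block, and 945, 318 and 2 without polysome replicates 1 and 3 (chosen after seeing the data). The changes called numbered 11 with values raised to the 40th percentile and 2 without the trend. With the replicate number as a block the counts were 779, 342 and 0. Without the block 2157 changes had an unadjusted p under 0.05, against 2252 expected by chance. Deviations of same-numbered arrays had r = −0.16, −0.23 and 0.35 at 4 dpp, and 0.57, −0.58 and −0.03 at 1 dpp. Taken from means of 3 arrays, these values cannot decide whether equal numbers share a gradient. Leaving out 1 array gave 454 to 3447 higher (fewest without non-translating replicate 2, most without polysome replicate 2), 159 to 1693 lower and 1 to 2 changes. Of 174 called probe sets of genes in the text 0 reversed and 5 kept the call in every alternative run. A further 41 lost it in no run but the fit of the 6 arrays, which kept only 39 of all 2443 calls. Genes that were not called turned sign. With the low spike level as a block Ddx4 had −0.75, Dnmt3a −0.01, Dnmt3b −0.01, Dnmt3l 0.13, Eef1a1 −0.02, Foxo1 0.29, Id4 −1.05, Kit −0.95, Sohlh2 −0.07 and Zbtb16 0.02. Without polysome replicates 1 and 3 Ddx4 had −0.54, Dnmt3a −0.09, Dnmt3b −0.08, Foxo1 0.39, Gfra1 −0.07, Id4 −1.13, Kit −1.46, Sohlh2 −0.22 and Zbtb16 0.29. Under quantile normalization Dnmt3a had −0.05, Dnmt3b −0.18 and Dnmt3l 0.07, and under trimmed-mean scaling Dnmt3a −0.01, Dnmt3b −0.15 and Eef1a1 −0.08. With array weights Afp had 0.36, Dnmt3l 0.13 and Eef1a1 −0.10. Acta1 had 0.02 at pseudocount 16 and 0.03 at 64, where Dnmt3b had 0. Leaving out 1 array, Acta1 ran from −0.50 to 0.44, Afp from −0.46 to 0.11, Dazl from −1.01 to 0.29, Dnmt3b from −0.27 to 0.17, Dnmt3l from −0.13 to 0.11, Eef1a1 from −0.10 to 0.17, Id4 from −0.19 to 1.11, Kit from −0.14 to 1.5, Odf2 from −0.41 to 0.02 and Star from −0.43 to 0.12. The causes were not tested. A description by protein length was not run.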

Other observations

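Cytosolic tRNA synthetases, which charge tRNAs with their amino acids, were listed after the values of Eprs and Gars were seen. Of 19 measured, 6 were called higher and 0 lower (10 and 0 at an unadjusted p under 0.05, limma), and the median was 0.83. Without Eprs and Gars, which prompted the list, 4 of 17 were higher and the median was 0.76. Mars1, for methionine, had 326, 197 and 173 in the non-translating pool and 689, 725.5 and 900.1 on polysomes (1.77 ± 0.27, adjusted p = 0.004292). Here polysome replicate 2 lay between the other 2. Lars was at 1.55, Rars at 1.36 and Hars at 1.26. The median was 0.76 with replicate 2 as the only polysome array, 0.86 without it, and 0.51 at 1 dpp. In the cytosolic chaperonin, which folds actin and tubulin and was listed at the same time, 1 of 8 subunits was higher, Cct7 at 1.11, and the median was 0.45.

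There were 31 genes with probe sets called in both directions. Trpm7, an ion channel with a kinase domain, had 2.41 and −3.12, and Lamc1, a laminin chain, 1.85 and −1.30. The fit of the 6 arrays called 39 probe sets.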
